A study of Mus musculus with 4 samples.

Results

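The 9 genes Nrxn3, Nlgn1, Ptprd, Cntnap2, Dlg2, Ctnna2, Csmd1, Csmd3 and Lrp1b encode adhesion receptors and scaffold proteins of neurons and have some of the longest gene bodies of the mouse genome. Their replication timing (RT) was read from the population-based Repli-seq profile of F121-9 mouse embryonic stem cells (mESCs), a diploid hybrid line (cas/129, from Castaneus and 129 mice) grown in N2B27 medium with 2i and LIF. The cells were pulse labeled with BrdU, sorted into an early and a late S-phase fraction, and the labeled DNA of 2 libraries per fraction was sequenced, with no other treatment or genotype. RT is the log2 of early over late reads in a 50 kb bin, so that bins with RT above 0 are called early and bins with RT below 0 late. The members were chosen by name, and their bins were all 50 kb bins that overlap the gene bodies of GENCODE vM21 in mm10, which gave 310 of 51153 bins (0.606%) and 9 of 21679 protein-coding genes with a value.

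The deposited profile holds 1 value per bin for both replicates together, and the read number behind it is unknown. No replicate error exists for these values, therefore, and no difference below was tested. An SD beside a mean is the spread over the bins of one gene body. The scatter of single bins around their neighbors in constant timing regions (CTRs), the flat segments of the profile, was 0.16 on the log2 scale over 7337 bins, and differences are read against it. The profile is a mean over many cells and over both homologs of one cell line, and it carries no expression values, so the identity of the cells could not be checked against markers.

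In mammalian cells, DNA replicates in domains that follow a defined order through S-phase, and early domains generally lie in open, gene-rich chromatin whereas late domains lie in compact, gene-poor chromatin. Neurexins on the presynaptic membrane bind neuroligins on the postsynaptic membrane, and receptor phosphatases of the LAR family form a second set of trans-synaptic contacts with their own ligands. Scaffold proteins with guanylate kinase-like domains hold receptors and channels below the membrane. These genes are known for their function in neurons, and long genes of this kind carry much of their length in introns.

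All 9 genes replicated late, and 8 of them had no early bin. Of the 310 bins, 306 (98.7%, exact binomial 95% interval 96.7 to 99.6, which covers counting only and treats neighboring bins as separate) lay below 0, against 59.1% of all bins of the autosomes and X. A further limit of -3 was passed by 265 of the 310 bins (85.5%, interval 81.1 to 89.2), against 27.4% of all bins. The median of the 310 bins was -3.69 and their range was -4.38 to 1.67, while the median of all bins was -0.98. The 4 early bins all lay in Cntnap2.

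**Figure D1:**
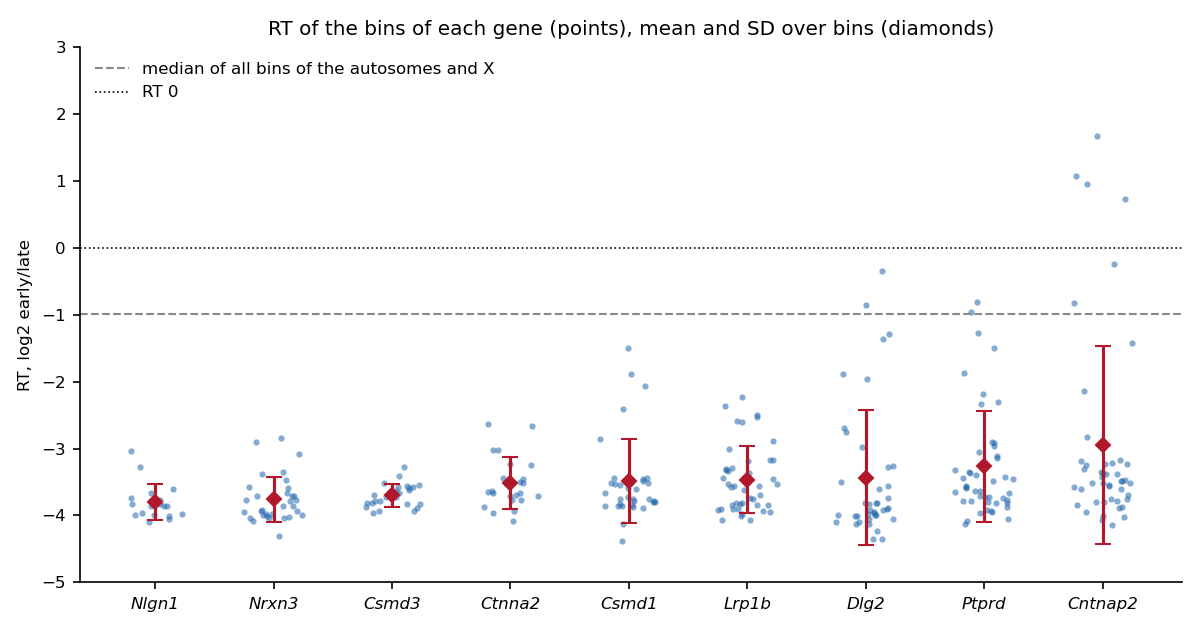
RT (log2 early/late) of every 50 kb bin that overlaps each of the 9 genes (blue points, spread sideways at random for legibility), with the mean and SD over the bins of a gene (red diamonds and bars). The dashed line is the median of all bins (-0.98) and the dotted line is RT 0, and only Cntnap2 has points above 0.

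Averaged over the body, the genes spanned from -3.80 in Nlgn1 to -2.95 in Cntnap2, with a median of -3.49. Ranked from latest to earliest, the order was Nlgn1, Nrxn3, Csmd3, Ctnna2, Csmd1, Lrp1b, Dlg2, Ptprd and Cntnap2. Each of the 8 neighboring pairs in that order differed by less than the larger of the SDs along their bodies. The differences between Csmd3 and Ctnna2 (0.19), Dlg2 and Ptprd (0.17) and Ptprd and Cntnap2 (0.31) were above 2 standard errors of the bin noise, and the other 5 were not. These standard errors treat neighboring bins as separate and hold no replicate error, so they are a scale for the differences and not a test. With the mean of a gene placed among all bins and an S phase taken to last 10 h, the scheduled time of replication was 9.18 h for Nlgn1, 8.22 h for the median gene and 7.19 h for Cntnap2.

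The levels lay low for protein-coding genes in general. Of all protein-coding genes, 27.5% had a mean RT below 0, and of the 230 genes of at least 500 kb 87.8% did, so that late replication of 9 of 9 is close to what long genes show. At the deeper limit, 8 of 9 members had a mean at or below -3, against 42.2% of the genes of at least 500 kb. Shares of the genes of at least 500 kb, here and below, are of all 230 with the members included, unless others are named. At or below -3 were 40.3% of the 221 others and 51.0% of the 51 others of at least 1 Mb. Of the members, 8 are at least 1 Mb long and Nlgn1, at 906 kb, is not. Cntnap2 was the exception among the members, at -2.95.

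Neurexins are presynaptic receptors made in long and short forms from separate promoters. Nrxn3 lies at chr12:88722876-90334935 on the plus strand, 1612 kb over 33 bins, and its mean RT was -3.76 ± 0.34. Its bins ran from -4.31 to -2.85, its first bin was -3.93 and its last -4.08. The earliest bin, at -2.85, lay 802 kb from the start inside the body, so that the profile rose in the middle and was low at both ends. The 4 start bins of its coding transcripts were all late, at -3.94, -3.94, -3.77 and -3.86, the last belonging to transcripts that begin 1090 kb into the body and are 521 kb long. The RefSeq promoter at the last of these starts, chr12:89812233-89812532 on the plus strand, held 16 CG dinucleotides in a bin of RT -3.86. It is printed here because CG-rich promoters were rare in such late bins: of all 32510 RefSeq promoters 8.03% lay in bins at or below -3, and of the 11362 with at least 15 CG dinucleotides 1.95% did. The sequence runs 5′ to 3′ in the direction of transcription, from 250 bases before to 50 bases after the annotated start, with each CG in capitals.
Nrxn3 promoter at 89812233: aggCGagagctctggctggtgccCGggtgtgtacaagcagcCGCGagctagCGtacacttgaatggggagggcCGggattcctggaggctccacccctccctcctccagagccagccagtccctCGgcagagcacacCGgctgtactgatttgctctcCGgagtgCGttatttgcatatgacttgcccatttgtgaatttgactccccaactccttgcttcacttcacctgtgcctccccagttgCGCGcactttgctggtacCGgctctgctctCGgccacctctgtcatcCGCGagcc

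Nlgn1, a postsynaptic partner of neurexins, lies at chr3:25426215-26332460 on the minus strand, and with 906 kb it is the shortest of the 9. It was also the latest, at -3.80 ± 0.26 over 19 bins, all of them at or below -3. Its bins ran from -4.10 to -3.03, with the start bin at -3.86 and the end bin at -3.03, the earliest of the body. The 3 start bins of its coding transcripts were at -3.86, -3.97 and -4.01. On its upstream side the profile climbed through a timing transition region (TTR), the sloping segment between an early and a late domain, whose center lay at -594 kb from the start in an intron of Spata16. The upstream megabase averaged -0.81 and reached 2.70, whereas the downstream megabase averaged -3.59, so that Nlgn1 was flanked by early chromatin on one side only.

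Ptprd, a receptor phosphatase of the LAR family that organizes presynaptic sites, lies at chr4:75941238-78211961 on the minus strand and is the longest member, with 2271 kb over 47 bins. Its mean was -3.27 ± 0.83, and 36 of the 47 bins were at or below -3. The body held 2 rises. The larger was a local peak of the profile at -0.81, 2187 kb from the start or 96.3% along the body, and the smaller reached -2.30 at 937 kb, below the prominence of 1 on the log2 scale that was asked of a peak after a running median of 5 bins. The larger rise lay in the stretch that holds most exons: 35 of the 41 merged exons of its coding transcripts lay in the last 10% of the body, and the coding transcripts began 1618 kb or more from the annotated start. Their 5 start bins were at -3.79, -3.96, -3.65, -1.88 and -1.5, the last 2, nearest to the end of the gene, being the earliest. Averaged over exons, the RT of Ptprd was -1.70, compared with -3.27 over its body.

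Cntnap2, a neurexin-related protein that gathers potassium channels on myelinated axons, lies at chr6:45059357-47304213 on the plus strand, 2245 kb over 46 bins. It was the earliest and most varied member, at -2.95 ± 1.48, because the body ran out of a late domain into an early one. Its first bin was at -3.55 and its latest bin, 1616 kb in, at -4.15. From there the profile climbed to 1.67 in the last bin, crossing 0 at chr6:47137654, in an intron 2078 kb from the start. The last 4 bins were 0.72, 0.96, 1.07 and 1.67, and they were the 4 early bins of all 310. Cul1, a ubiquitin ligase subunit that begins 149 kb beyond the end, replicated at 1.81. Transcripts that begin near the end of Cntnap2 started in bins of -1.43 and 0.96, while the full-length transcripts started at -3.55.

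A pair of its RefSeq promoters are shown together, the one of the late start and the one of the early start. Both are on the plus strand, and CG is in capitals. The promoter of the long transcripts, chr6:45059811-45060110, held 14 CG dinucleotides in a bin of -3.55, and the internal one, chr6:47244146-47244445, held 3 in a bin of 0.96.
Cntnap2 promoter at 45059811: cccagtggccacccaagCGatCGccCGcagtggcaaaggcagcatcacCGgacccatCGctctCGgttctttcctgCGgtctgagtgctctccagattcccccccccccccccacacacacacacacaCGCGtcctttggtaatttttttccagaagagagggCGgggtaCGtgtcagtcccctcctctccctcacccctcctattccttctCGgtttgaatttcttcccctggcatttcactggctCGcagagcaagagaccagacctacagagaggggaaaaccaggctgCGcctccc
Cntnap2 promoter at 47244146: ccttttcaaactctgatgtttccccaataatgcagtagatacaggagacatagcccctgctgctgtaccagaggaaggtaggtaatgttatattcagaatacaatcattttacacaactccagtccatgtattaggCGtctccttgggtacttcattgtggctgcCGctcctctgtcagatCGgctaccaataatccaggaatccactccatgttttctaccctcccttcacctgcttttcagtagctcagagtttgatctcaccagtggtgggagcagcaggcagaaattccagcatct
The CG-richer of the pair lay in the later bin. A CG occurs in 94.7% of all promoters of this length, and the median promoter holds 7.

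Dlg2, a guanylate kinase-like scaffold of the postsynaptic density, lies at chr7:90476672-92449247 on the plus strand, 1973 kb over 40 bins, and averaged -3.43 ± 1.01. Its profile had the shape of a basin that matched the gene. The first bin was at -0.35, the next 5 fell through -0.85, -1.37, -1.96, -2.75 and -2.98, the lowest, 548 kb in, reached -4.35, and the last 3 rose through -2.70 and -1.89 to -1.29. The late domain around it, the run of bins below 0, was 2.2 Mb long and the gene took up 89.7% of it. TTR centers lay at -171 kb from the start, in an intron of Sytl2, and 47.8 kb beyond the end. The megabase on either side reached 2.98 upstream and 2.31 downstream, with 23 of its 40 bins early. Tmem126b, a mitochondrial protein gene 0.671 kb upstream, shared the start bin of Dlg2, and Ccdc90b, 112 kb downstream, replicated at 1.28.

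The first bin of Dlg2, its earliest at -0.35 though still late, held the start of a single coding transcript, and the other 3 start bins of the gene were at -4.24, -4.0 and -3.61. The RefSeq promoter nearest to the second start, chr7:91090536-91090835 on the plus strand, lay in the bin of -4.24 and held 3 CG dinucleotides, again in capitals. It is the latest of the 11 promoters that the RefSeq table held for 5 of the genes.
Dlg2 promoter at 91090536: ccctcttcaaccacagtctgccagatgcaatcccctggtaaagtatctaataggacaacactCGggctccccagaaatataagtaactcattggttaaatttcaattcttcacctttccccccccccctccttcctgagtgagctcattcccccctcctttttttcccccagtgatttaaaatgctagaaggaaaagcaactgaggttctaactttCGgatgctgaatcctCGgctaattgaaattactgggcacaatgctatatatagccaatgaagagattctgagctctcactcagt

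Ctnna2, the alpha-catenin of neurons, which ties cadherin complexes to actin, lies at chr6:76881637-77979699 on the minus strand, 1098 kb over 23 bins. Its mean was -3.52 ± 0.39, with bins from -4.09 to -2.64, a start bin of -3.65 and an end bin of -3.63. It sat farther from early chromatin than any other member, 4370 kb from the nearest early bin at its start and 3482 kb at its end, in a late domain of 8.95 Mb. Lrrtm1, a neurexin ligand nested in the body of Ctnna2, replicated at -3.59. All 5 coding transcripts that begin in its first bin share that late start. Its RefSeq promoter, chr6:77979618-77979917 on the minus strand, held 38 CG dinucleotides, more than 95% of all promoters in the table, in that bin of -3.65. It is shown in the direction of transcription with CG in capitals.
Ctnna2 promoter at 77979618: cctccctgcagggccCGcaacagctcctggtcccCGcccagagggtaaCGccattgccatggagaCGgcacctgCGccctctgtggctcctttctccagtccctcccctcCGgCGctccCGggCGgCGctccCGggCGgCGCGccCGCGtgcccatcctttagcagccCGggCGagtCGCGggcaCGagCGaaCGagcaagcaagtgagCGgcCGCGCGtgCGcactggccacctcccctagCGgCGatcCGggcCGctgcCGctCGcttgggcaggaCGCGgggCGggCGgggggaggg

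Csmd1 and Csmd3 encode large membrane proteins with CUB and sushi domains, and Csmd1 is known to restrain complement. Csmd1, at chr8:15892537-17535586 on the minus strand (1643 kb, 34 bins), averaged -3.49 ± 0.63 and held the single latest bin of all members, -4.38 at 1211 kb from its start. Its start bin was at -3.66, and over its last bins the profile climbed through -2.86, -2.41, -2.07 and -1.89 to -1.5. That end carried 33 of its 70 merged exons in its last 10%, and the mean RT over its exons was -2.80. Csmd3, at chr15:47580637-48792063 on the minus strand (1211 kb, 25 bins), was the flattest member, at -3.70 ± 0.17, an SD about as large as the bin noise of 0.16. All 25 of its bins lay between -3.96 and -3.27, and no other protein-coding gene began or ended within 1 Mb on either side.

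Lrp1b, a receptor of the LDL receptor family, lies at chr2:40595246-42653624 on the minus strand, 2058 kb over 43 bins, and averaged -3.46 ± 0.50. Its start bin was at -3.82 and its end bin at -3.62. In its middle, 1129 kb from the start or 54.8% along the body, the profile had a local peak at -2.23, and a second rise reached -2.50 at 1729 kb. With the peak of Ptprd, these were the only 2 peaks in the bodies at that prominence. Both stayed below 0.

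**Figure D2:**
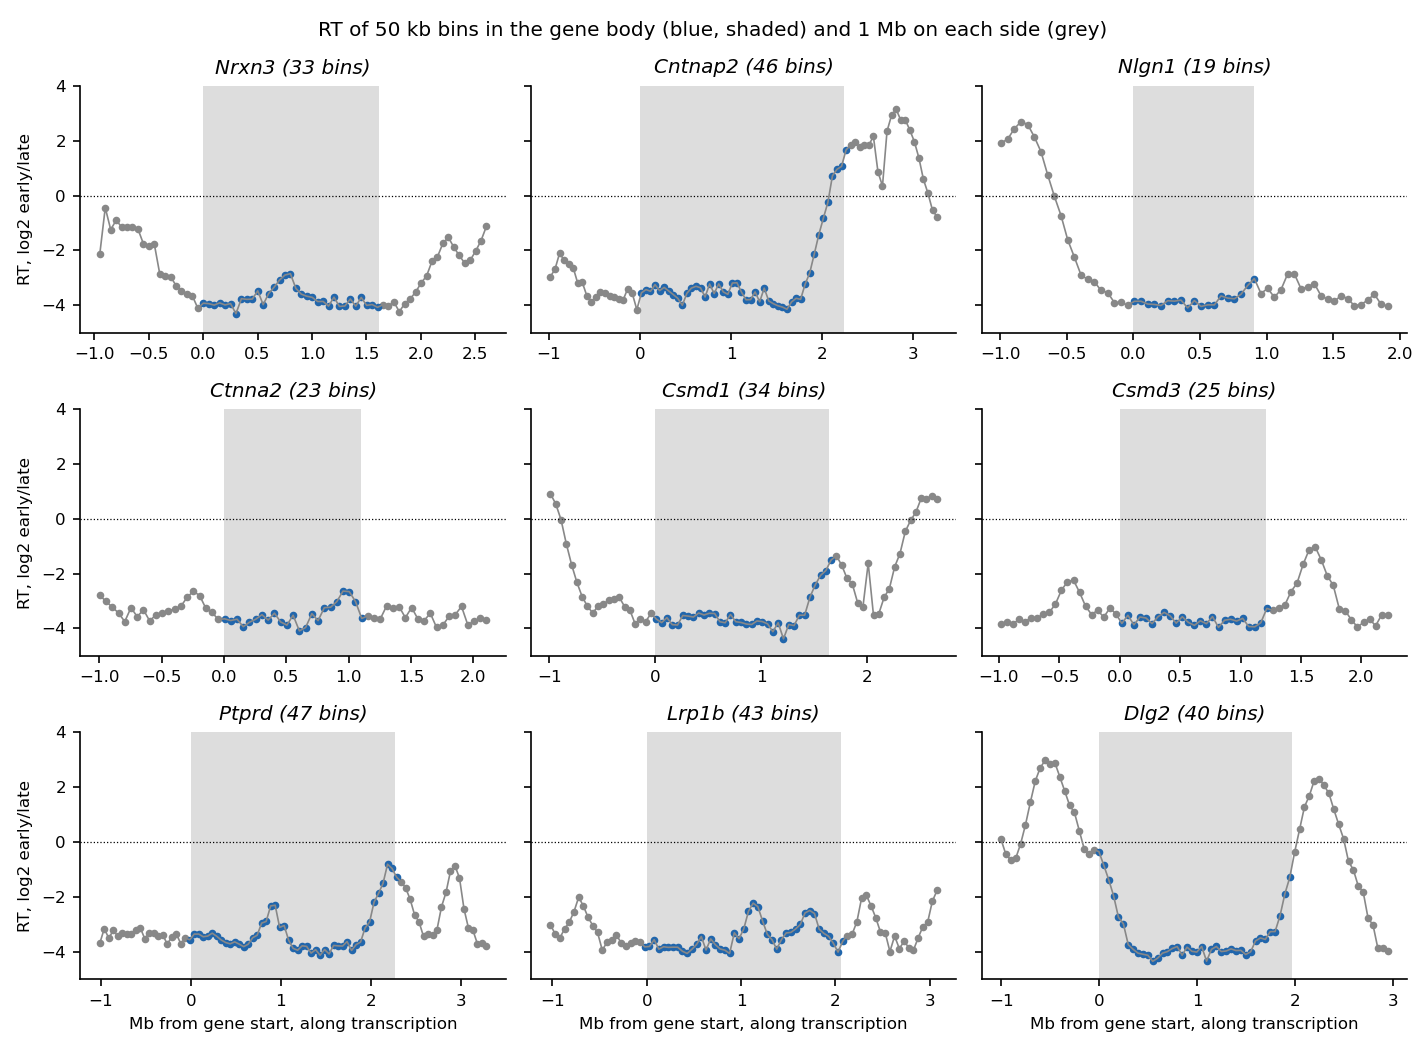
RT (log2 early/late) of 50 kb bins by distance in Mb from the start of each gene, in the direction of transcription, with the gene body shaded and its bins in blue and the bins within 1 Mb on each side in grey. Dlg2 forms a basin between early flanks, Cntnap2 climbs above 0 before its end, Nlgn1 has an early flank upstream, and Csmd3 stays flat.

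The surroundings differed more between members than the bodies did. Late domains ran from 2.2 Mb around Dlg2 to 8.95 Mb around Ctnna2, and the genes took up between 12.3% (Ctnna2) and 89.7% (Dlg2) of their domain. Of the 359 flanking bins, 56 (15.6%) were early, and they lay beside 4 genes: Dlg2 with 23, Cntnap2 with 18, Nlgn1 with 8 and Csmd1 with 7. Nrxn3, Ctnna2, Csmd3, Ptprd and Lrp1b had no early bin within 1 Mb. The body was later than its flanks in 9 of 9 genes, with a median difference of -1.28, against 79.1% of the genes of at least 500 kb and a median of -1.10 for the 221 others. That median difference moved with the setting, to -0.54 with flanks of 500 kb, -2.11 with flanks of 2 Mb and -0.46 with medians over bins, and the body was later in 9 of 9 under each of these. The difference was larger than the SD of the flanking bins in 2 genes, Dlg2 (-3.71, flank SD 1.93) and Nrxn3 (-1.28, flank SD 1.08), and smaller in the other 7, down to -0.10 in Ctnna2.

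At the slope limit used here, most of the body bins lay on plateaus. CTRs were runs of at least 10 bins with a slope of at most 2.5 log2 per Mb. They held 163 of the 310 bins (52.6%), against 14.3% of all bins. Of the member bins at or below -3 they held 61.5%, against 33.9% of all bins at or below -3. The share of body bins ran from 23.3% in Lrp1b and 23.9% in Cntnap2 to 84.2% in Nlgn1 and 88.0% in Csmd3. Over the 310 bins it moved strongly with the slope allowed, to 20.3% at 1.5 log2 per Mb and to 81.0% at 5. The shares of all bins are given at 2.5 only.

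Start bins were as late as the bodies. The start bin holds the annotated start of the gene, and in Ptprd and Nrxn3 no coding transcript begins in it. The first coding start of Ptprd lies 1618 kb into the body, in a bin of -3.79. The start bin was at or below -3 in 8 of 9 genes, with Dlg2 the exception, against 7.33% of all protein-coding genes and 40.3% of the 221 other genes of at least 500 kb. It was earlier than the mean of the body in 1 of 9 (Dlg2), against 53.9% of the genes of at least 500 kb. The number was 2 with a running median or with a start of 3 bins, and 3 against the median of the body. Genes of at least 1 Mb, a length that 8 members reach, were closer to the members. Among the 51 others of that length, 52.9% had a start bin at or below -3, and in 22 it was earlier than the body. Their median of start bin minus body was -0.13, against -0.17 for the members. Counting every annotated coding transcript of the 9 genes, 49 transcripts began in 28 bins, of which 27 were late and 23 were at or below -3. The 5 start bins above -3 were the first bin of Dlg2 and the internal starts of Cntnap2 and Ptprd already given. Of all bins of the bodies, 98.7% were late and 85.5% at or below -3. Starts of every transcript were not counted in other genes.

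Gene ends tended to be earlier than gene starts. The end bin was above the start bin in 7 of 9 genes, against 55.2% of the genes of at least 500 kb, and the median difference was 0.55 for the members and 0.14 for the others. It was above 0.44, which is 2 SDs of the noise of a difference between bins, in 5 genes: Cntnap2 (5.22), Ptprd (2.29), Csmd1 (2.16), Nlgn1 (0.83) and Csmd3 (0.55). Lrp1b (0.21), Ctnna2 (0.01) and Nrxn3 (-0.15) lay within that noise, and Dlg2 (-0.94) went the other way. Cut into 10 equal segments from start to end, the bodies had medians of -3.73 in the first, -3.85 in the seventh, -3.30 in the ninth and -3.10 in the last. The last segment was also the most varied, from -3.94 in Nrxn3 to 0.83 in Cntnap2.

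Pooled over the 9 genes, exons lay mostly toward the ends of the bodies. The coding transcripts of the 9 genes had 392 exons after merging, and 160 of them (40.8%) lay in the last 10% of the body, compared with 31.5% of 5337 exons in the other long genes. The share in the last 2 of the 10 segments was 58.7% for the members and 46.0% for the others. These pooled shares weigh each gene by its exons and do not hold for every member. The last 10% held 35 of 41 exons in Ptprd, 33 of 70 in Csmd1, 29 of 71 in Csmd3 and 27 of 95 in Lrp1b. In Dlg2 it held 12 of 34 and in Ctnna2 10 of 21. In Cntnap2 it held 7 of 27, in Nrxn3 4 of 24 and in Nlgn1 3 of 9. The mean RT over exons was above that of the body in 8 of 9 genes, against 70.4% of the genes of at least 500 kb, with Csmd3 the exception at -3.76 for exons and -3.70 for the body. The median difference was 0.24 for the members and 0.17 for the others. The exon-rich end was not the earliest stretch in every gene: the last 10% averaged -3.62 in Lrp1b, with 27 exons, and -3.94 in Nrxn3, with 4 exons, both below the mean of the body, and it was -3.67 in Csmd3, with 29. The earliest segment of Dlg2 was its first, at -1.13, with 3 exons, and that of Ctnna2 was the ninth, at -2.83, with none. In all, 387 of the 392 exons lay in late bins, and the 5 early ones all belonged to Cntnap2. This count follows that of the body bins, 98.7% of which were late, and no such share was taken for exons of other genes.

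**Figure D3:**
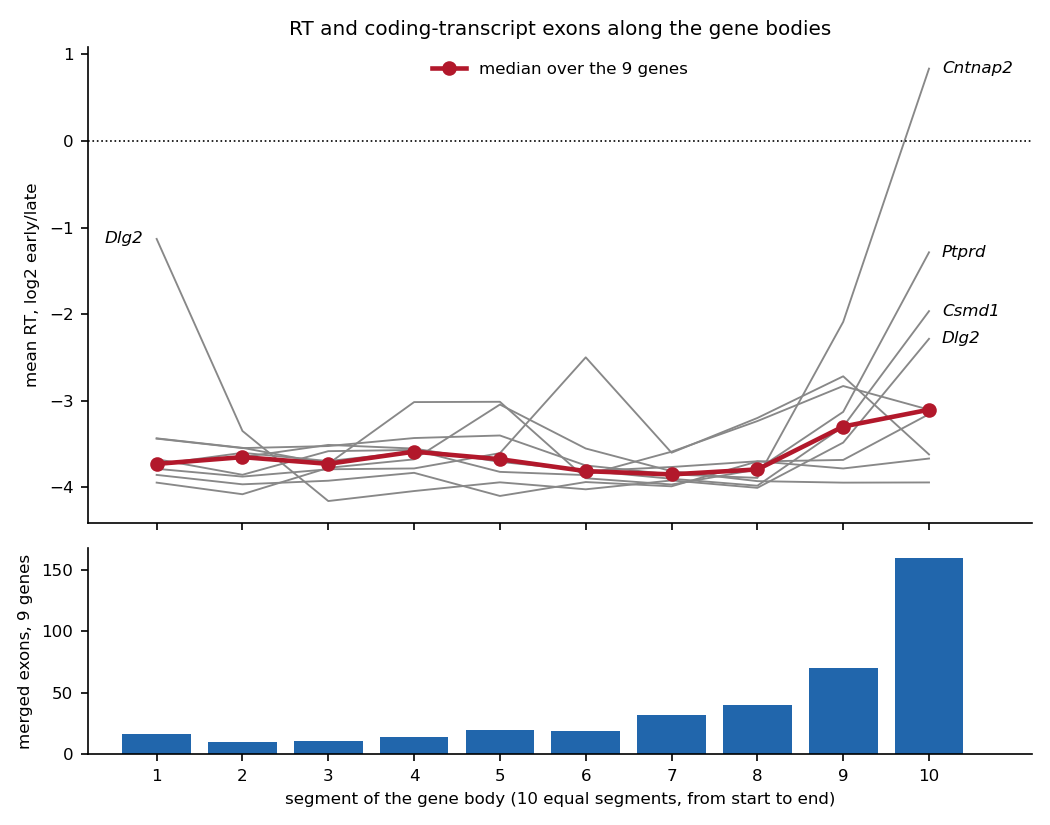
Upper panel, mean RT (log2 early/late) in each of 10 equal segments of the gene body from start to end, with a grey line per gene and the median of the 9 genes in red. Lower panel, number of merged exons of coding transcripts in each segment, summed over the 9 genes, which rises to 160 in the last segment while the median RT rises to -3.10.

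Base composition was compared through bins of equal GC content, taken within 0.5 percentage points of each body bin across the profile. The bodies held a median of 37.9% GC, against 41.1% for all bins. RT lay below the level of equal-GC bins in 7 of 9 genes, against 68.3% of the genes of at least 500 kb, and the median differences were -0.44 for the members and -0.42 for the others. The gap was widest in Csmd1 (-1.76, at 40.3% GC), Nrxn3 (-1.33, at 39.3%) and Ctnna2 (-0.88, at 39.0%), which have the highest GC of the 9. Their equal-GC levels were also the highest, at -1.73, -2.43 and -2.64, while mean RT varied less between members. A wider gap at higher GC is therefore partly built into the measure. The gap was within 2 standard errors of the bin noise, again with neighboring bins taken as separate, in Cntnap2 (-0.01) and Lrp1b (0.03). It was small but above them in Csmd3 (-0.15) and Ptprd (0.16).

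**Figure D4:**
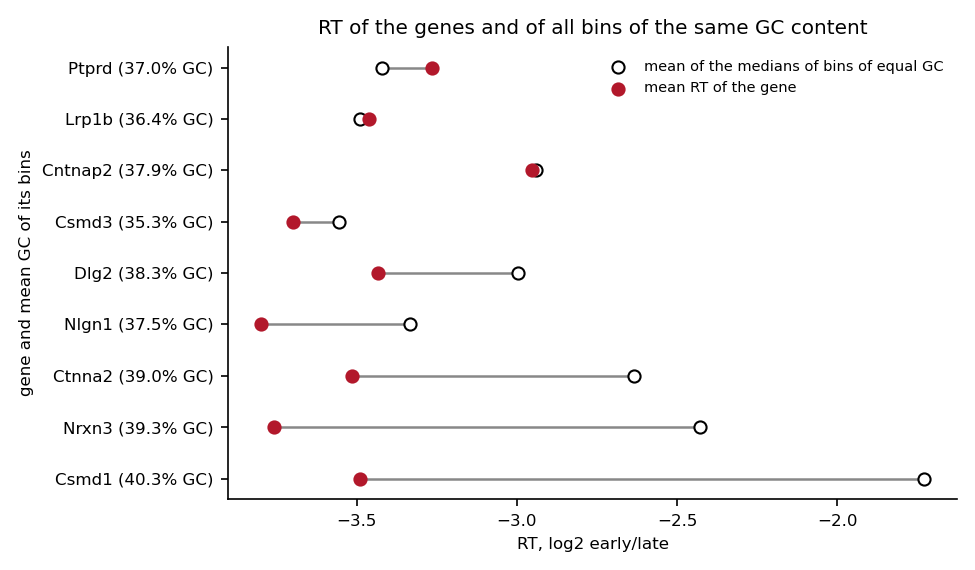
Mean RT (log2 early/late) of each gene (red) and the mean, over its bins, of the median RT of all bins with equal GC content (open circles), with genes ordered by the difference. Csmd1, Nrxn3 and Ctnna2 differ from the equal-GC level by -1.76, -1.33 and -0.88, and Ptprd by 0.16.

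The family relatives of the 9 genes were looked at as a list of 20 genes. Of these, 8 were late and 12 early, against 27.5% late among all protein-coding genes, and late genes were found among the longer relatives as they were among all genes. None of the 8 relatives shorter than 100 kb was late, against 25.5% of all genes of that length. Between 100 and 500 kb 2 of 6 were, against 38.8%, and of those of at least 500 kb 6 of 6 were, against 87.8%. Nrxn2, at 125 kb, replicated at 3.72, against -3.76 for Nrxn3. The neuroligins Nlgn2 and Nlgn3, both under 30 kb, replicated at 3.59 and 3.57, against -3.80 for Nlgn1. In the Cntnap family, Cntnap5c (-3.96), Cntnap5a (-3.74), Cntnap5b (-3.58) and Cntnap4 (-3.47) were all later than Cntnap2, Cntnap3 was at -0.70, and Cntnap1, 20.2 kb long, was at 3.76.

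The remaining families held early genes as well as the late members in most cases. The LAR phosphatases Ptprf (3.43) and Ptprs (3.66) were early, unlike Ptprd. The scaffolds Dlg1 (2.79), Dlg3 (1.95) and Dlg4 (3.40) were early, unlike Dlg2. Lrp1 (3.61) and Lrp2 (0.44) were early, unlike Lrp1b. Csmd2, at 580 kb the shortest of its family, was late at -1.08, above both Csmd1 and Csmd3. The alpha-catenin genes were chosen after their values were seen, for each holds an Lrrtm gene: Ctnna1 (3.10) with Lrrtm2 (2.92), Ctnna2 (-3.52) with Lrrtm1 (-3.59), and Ctnna3 (-2.06) with Lrrtm3 (-3.75). The RT of each Lrrtm gene was read from bins of the gene that holds it, so the values of a pair are not independent. Lrrtm1 is also counted among the partners below, although its bins are bins of Ctnna2. Ctnna3 differed from the members in its start bin, which was at 3.16.

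**Figure D5:**
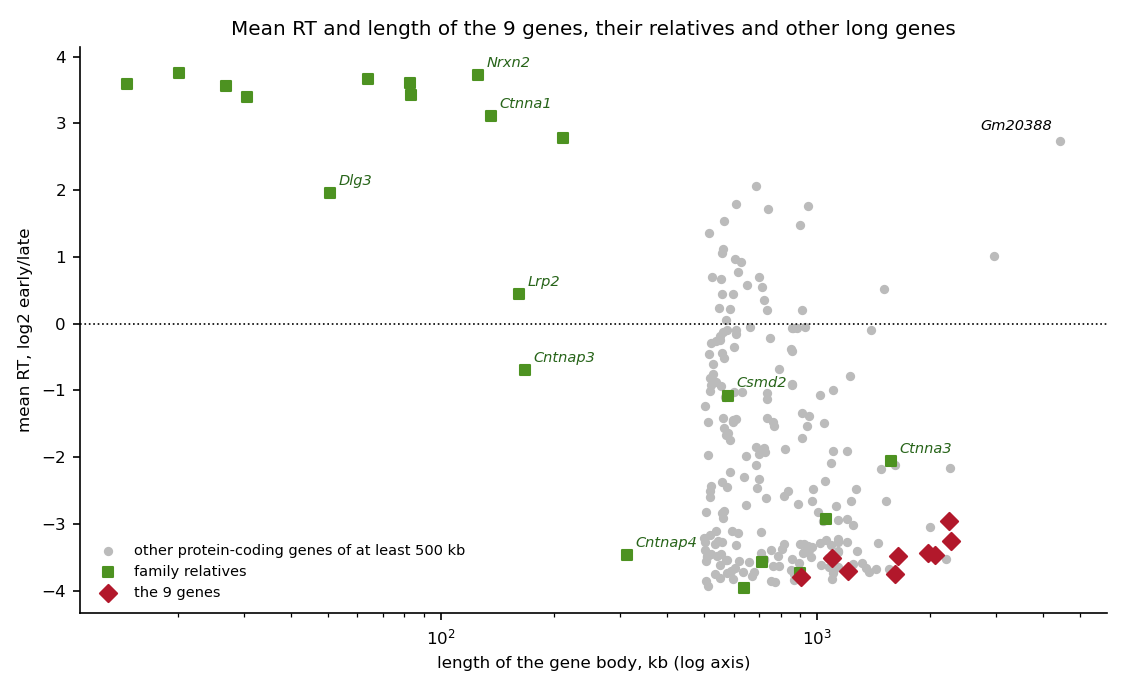
Mean RT (log2 early/late) by length of the gene body in kb (log axis) for the 9 genes (red diamonds), their 20 family relatives (green squares) and the other protein-coding genes of at least 500 kb (grey). Relatives shorter than 100 kb all lie above 0, those of at least 500 kb all below 0, and the 9 genes lie between -3.80 and -2.95.

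Genes for binding partners of the same synaptic contacts were less uniform. Of 60 partners, 33 were late, against 27.5% of all protein-coding genes. With the cut at -1 or at the median of all bins, 25 of the 60 were late, and no share of all genes is given for those cuts. A mean at or below -3 was found in 19 partners. The share at that limit among all protein-coding genes was 6.71% under 100 kb, 6.72% from 100 to 300 kb and 18.4% from 300 to 500 kb. It was 40.3% among the 221 other genes of at least 500 kb, and the 19 were not split by length. Late genes made up 8 of 14 neurexin ligands, 10 of 18 ligands and liprins of LAR phosphatases, 8 of 9 contactins and members of the Cntnap2 complex, 2 of 5 cadherin-catenin genes and 5 of 14 postsynaptic scaffolds. Among partners shorter than 100 kb, 11 of 33 (33.3%) were late, compared with 25.5% of all protein-coding genes of that length. Those of 100 to 500 kb were late in 12 of 16 cases, against 38.8% of all genes of that length, and those of at least 500 kb in 10 of 11, against 87.8%. The 38.8% joins 34.3% for genes of 100 to 300 kb and 64.7% for genes of 300 to 500 kb. Partners lie in both ranges and were not matched for length within them. The lowest were Cbln2 (-3.97), a secreted bridge between neurexins and glutamate receptors, the liprin Ppfia2 (-3.90) and the coreceptor Il1rap (-3.76). The highest were Jup (3.78), which is plakoglobin, the scaffold Homer3 (3.76) and the latrophilin Adgrl1 (3.68). The single early partner of at least 500 kb was the scaffold Magi1, at 1.8.

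Mean RT fell with length over the whole annotation. Its median was 2.44 for the 19191 genes under 100 kb, 1.21 from 100 to 300 kb, -1.08 from 300 to 500 kb, -1.98 for the 170 other genes from 500 kb to 1 Mb, and -3.02 for the 51 others of at least 1 Mb. The 221 other genes of at least 500 kb had a median of -2.47 (quartiles -3.44 and -0.90), and 49 of them lay below the median member. Ranked from the latest among all 230, the members stood at 11, 14, 24, 50, 54, 58, 63, 86 and 99. Nearest to the median member were Arhgap6 (-3.49), Inpp4b (-3.49) and Foxp2 (-3.48). The earliest of the long genes were the annotated model Gm20388 (2.74, with 4435 kb the longest), Ptprg (2.06), a receptor phosphatase outside the LAR family, and Magi1 (1.8).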

How the data were processed

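Population-based RT was measured by Repli-seq in diploid F121-9 mESCs, with 2 early and 2 late S-phase libraries. The authors converted reads of each fraction to RPM and deposited log2 values of early over late reads, 1 per 50 kb bin of mm10. Their notes list Bowtie2, SAMtools and bedtools. Versions, any smoothing and how replicates were joined are not given in the sources used here, and RT contrasts are narrowed by any smoothing.

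Of 51427 deposited bins, 51153 on the 19 autosomes and X were used (Python 3.11.15, numpy 2.4.6, pandas 2.3.3, scipy 1.17.1). A bin counted for a gene when it overlapped the GENCODE vM21 body, and gene level was the mean of its bins. A TTR ran between states of 1 and -1. Hours are the share of bins with higher RT times 10 h. The steps were tested on simulated profiles, in which 58 of 58 planted peaks were found in bodies of at least 20 bins and 60 of 113 in shorter ones. All planted peaks had the same height, above the prominence limit, and stood on flat bodies. These counts therefore do not tell how often lower rises are found. Promoters came from RefSeq (GRCm38), and all 11 matched the genome. The genes and lists were chosen with earlier results of these data known. All 9 genes, all 20 relatives and all 60 partners are reported in counts, the partners with the 3 lowest and 3 highest named. The value of 1 relative is not reported here.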

Additional observations from a re-analysis of the deposited data

How the results depend on the processing

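Of 50 alternative settings over 13 results, 33 left the value within the set limits, 17 moved it and none reversed a direction. All 9 genes were late in each of the settings tried for that count. The number of late partners fell from 33 to 25 with the cut at -1 or at the median of all bins. That of late relatives fell from 8 to 7, and both were counted as within the limits. Taking the median over bins in place of the mean moved the level of the members from -3.49 to -3.69, the median difference from the flanks to -0.46, the median of start bin minus body to -0.00502, and the median of the other long genes to -2.73. Flanks of 500 kb gave a median difference of -0.54 and flanks of 2 Mb one of -2.11. The number of genes whose start bin was earlier than the body was 2 with a running median of 5 bins, 2 with a start of 3 bins, and 3 against the median of the body. The number of peaks was 7 at a prominence of 0.5, 1 at a prominence of 2, and 6 with no running median. The share of body bins in CTRs was 20.3% at a slope of 1.5 log2 per Mb, 81.0% at 5 and 68.4% after a running median. The median of the other long genes was -1.63 from 300 kb and -3.02 from 1 Mb. No paired analysis was possible because the replicates are joined in 1 value per bin, so leaving out a replicate was not run either.

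Depth is unknown, and a 50 kb bin holds many exons or whole short genes, so levels of genes shorter than a bin describe the bin. Neighboring bins are not independent. How fork movement or smoothing shapes the slopes at the ends of Dlg2, Cntnap2, Csmd1 and Ptprd was not tested.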
